A study of Mus musculus with 6 samples.

Results

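The genes described here are 57 genes of the cell cycle and of DNA replication, listed by symbol and looked up among the 54752 genes counted in the right hippocampus of sham and BCAS mice. All 57 were found under 1 identifier each, and all 57 were kept by the filter on low counts, with 18617 genes in all. Of these members, 20 were assigned to G1 and S phase (G1/S cyclins, the replication helicase, the sliding clamp, deoxynucleotide synthesis and E2F factors) and 37 to G2 and mitosis (mitotic cyclins and kinases, the anaphase machinery, kinetochore, spindle and cytokinesis genes). The phase of Ccna2, Mybl2, Melk, Cks1b and Esco2 was taken as uncertain. Bilateral carotid artery stenosis (BCAS) narrows both common carotid arteries with wire microcoils and lowers blood flow to the brain over weeks, and in this study the narrower coil was on the right. All mice were male, C57BL/6 (C57BL/6 J in the study's methods) and WT, and the labels give 14 weeks for each of them. The 3 sham mice had the same operation without coils, the 3 BCAS mice carried both coils, and tissue was taken 3 weeks after surgery. Each library is the whole right hippocampus of 1 mouse, so all its cell types are measured together, and in such bulk RNA fewer cells of a type and less RNA per cell cannot be told apart. Neuronal markers were present in every library: the summed level of 5 excitatory neuron markers was 5121 to 5231 CPM (counts scaled to a common library total) in sham mice and 2359 to 3598 CPM in BCAS mice.

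A dividing cell first prepares its DNA for copying. In G1 the loading factors Cdc6 and Cdt1 place the Mcm2 to Mcm7 helicase on origins, and cyclin E with Cdk2 then starts S phase, when E2F factors released from the retinoblastoma protein keep the genes for replication and nucleotide supply switched on. Genes for mitosis are switched on later, by B-Myb and FoxM1, and many of their promoters carry a cell cycle homology region (CHR) next to CCAAT boxes, which NF-Y binds. In the adult hippocampus most neurons never divide again, while progenitors of the dentate gyrus, oligodendrocyte precursors, microglia and vascular cells can.

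The promoters of 5 genes are printed because they show the elements whose frequency differed between mitotic and replication genes, as 180 bases just before the start of transcription listed first by RefSeq in build GRCm38.p6, written 5′ to 3′ on the strand of the gene. They were chosen after the values and the matches had been seen. Capitals mark matches on either strand, and neighbouring or overlapping matches run together. CHR was searched as TTTGAA and also, in a form that reads the same on both strands, as TTTAAA. The box that NF-Y binds was searched by its letters CCAAT. E2F sites were searched as TTCCCGC, as another form with the letters TTGGCGC, and as the other form that is spelled TTCGCGC. The window of Cdk1, the kinase that drives entry into mitosis and the member with the largest fold change, is chr10:69352913-69353092 on the minus strand. That of Top2a, the topoisomerase that untangles chromosomes, is chr11:99024190-99024369 on the minus strand. The windows of Mcm5 and Mcm6, helicase subunits, are chr8:75109329-75109508 on the plus strand and chr1:128359706-128359885 on the minus strand. The window of Ccne1, cyclin E and the 1 member called lower in BCAS mice, is chr7:38107491-38107670 on the minus strand.
Cdk1: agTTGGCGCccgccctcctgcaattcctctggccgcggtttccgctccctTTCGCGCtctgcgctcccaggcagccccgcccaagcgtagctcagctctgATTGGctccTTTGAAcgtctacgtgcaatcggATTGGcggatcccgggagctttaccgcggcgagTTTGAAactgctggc
Top2a: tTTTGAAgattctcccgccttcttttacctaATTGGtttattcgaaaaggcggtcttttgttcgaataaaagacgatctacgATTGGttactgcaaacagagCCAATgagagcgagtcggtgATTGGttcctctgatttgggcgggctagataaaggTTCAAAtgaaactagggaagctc
Mcm5: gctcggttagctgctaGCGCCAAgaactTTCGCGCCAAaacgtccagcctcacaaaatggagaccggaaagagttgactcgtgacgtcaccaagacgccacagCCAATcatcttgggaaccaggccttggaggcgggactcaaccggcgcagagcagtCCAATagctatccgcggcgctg
Mcm6: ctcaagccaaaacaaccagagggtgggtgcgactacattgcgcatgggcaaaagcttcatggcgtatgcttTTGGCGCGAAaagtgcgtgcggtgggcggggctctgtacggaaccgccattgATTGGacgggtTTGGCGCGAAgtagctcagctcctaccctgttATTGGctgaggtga
Ccne1: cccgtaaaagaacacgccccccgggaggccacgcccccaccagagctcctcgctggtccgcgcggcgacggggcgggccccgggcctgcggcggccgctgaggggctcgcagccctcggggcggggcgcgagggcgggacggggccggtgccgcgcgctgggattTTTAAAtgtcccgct

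Within these bases the Cdk1 promoter held 2 CHR, 2 CCAAT and 2 E2F matches, and the nearer CHR lay 15 to 10 bases before the start. Top2a had 2 CHR and 4 CCAAT matches and 0 E2F matches. Mcm5 and Mcm6 had 0 CHR matches here and 3 and 4 E2F matches, the E2F letters overlapping each other in both. Ccne1 had 1 CHR and 0 E2F matches.

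RefSeq windows from 250 bases before to 50 after the start were matched by symbol for 48 of the 57 members, 16 of them G1/S and 32 G2/M genes. Members without a window in the table were Ccnd1, Ccne2, Mcm4, Esco2, Ccna2, Foxm1, Aurkb, Kif20a and Tpx2. CHR letters occurred in 27 of 32 G2/M promoters (84.4%) and in 6 of 16 G1/S promoters (37.5%). They occurred in 19.7% of the 12920 promoters of tested genes and in 27.8% of all 27025 promoters. CHR and CCAAT together were found in 71.9% of G2/M and 25% of G1/S promoters, against 7.86% of tested genes and 10.9% of all promoters. E2F letters showed the opposite order, with 50% of G1/S and 15.6% of G2/M promoters, 13.7% of tested genes and 8.21% of all promoters. CCAAT alone was frequent in both groups of members, at 68.8% and 78.1%, and occurred in 37.9% of tested genes and of all promoters. A CDE-like GC run, searched as GGCGG, was in 93.8% of G1/S and 90.6% of G2/M promoters and also in 77.1% of tested genes and 49% of all promoters. Among members higher in BCAS mice, 23 of 27 promoters (85.2%) held CHR letters, and among members that did not pass the test 9 of 20 did (45%). Most higher members are G2/M genes, and within G2/M the same shares were 20 of 22 (90.9%) and 7 of 10 (70%). These matches describe letters in a window and are not measured binding sites.

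**Figure D1:**
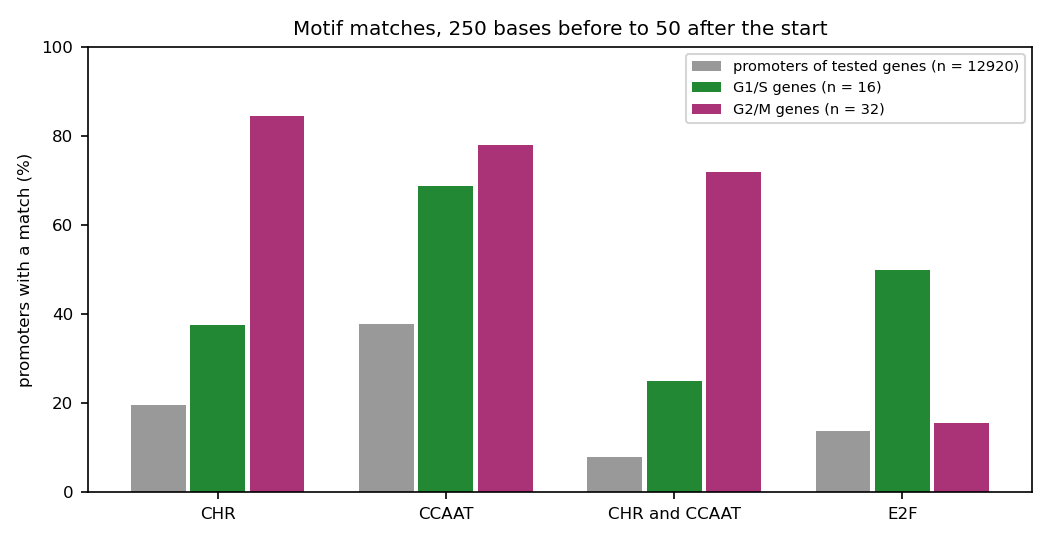
Share of promoters, in percent, that hold each motif between 250 bases before and 50 after the RefSeq start, for tested genes (grey), G1/S members (green) and G2/M members (purple). CHR matches reach 84.4% in G2/M members, 37.5% in G1/S members and 19.7% in tested genes, and E2F matches 15.6%, 50% and 13.7%.

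Most mitotic members and a minority of the G1/S members were higher after BCAS. Of the 57 members, 31 were higher in BCAS mice at an adjusted P under 0.05 (54.4%), 1 was lower (Ccne1) and 25 did not pass. Over all 18617 tested genes, 18.0% were higher and 13.2% lower. With the added threshold of a log2 fold change above 1, 26 members (45.6%) were up-regulated DEGs and 0 were down-regulated, against 8.47% and 0.999% of tested genes. The median log2 fold change was 0.92 over the members and 0.018 over all tested genes, and 54 of 57 members had a positive value. In 39 members (68.4%) every BCAS mouse lay above every sham mouse, and in 1 every BCAS mouse lay below, against 25.3% and 22.7% of tested genes. Each adjusted P here is from edgeR's quasi-likelihood test with Benjamini-Hochberg adjustment over all tested genes, since exact two-sided permutation of 3 and 3 mice cannot give a P below 0.1. Of the members, 7 passed the filter only through their level in BCAS mice (Esco2, Cks2, Aurkb, Bub1, Melk, Ube2c and Ndc80), and among the other 50 members 26 were called higher with a median of 0.84. Leaving out sham mouse 1, sham mouse 3 or BCAS mouse 3 gave 19, 17 and 17 higher members, and the count of up-regulated DEGs was 17, 16 and 15.

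A larger share of G2/M than of G1/S members was higher in BCAS mice. Of 37 G2/M members, 26 were higher (70.3%), 0 lower and 22 were up-regulated DEGs (59.5%), and of 20 G1/S members 5 were higher (25%, near the share of all tested genes), 1 lower and 4 were up-regulated DEGs. The median log2 fold change was 1.15 for G2/M genes (quartiles 0.81 and 1.74) and 0.43 for G1/S genes (quartiles 0.23 and 1.07), a difference of 0.72. Restricted to members that passed the filter in sham mice alone, 21 of 31 G2/M genes (median 1.06) and 5 of 19 G1/S genes (median 0.42) were higher. The mean log2 CPM of the G2/M genes was 0.41, 0.31 and 0.22 in sham mice 1 to 3 and 1.37, 1.23 and 2.06 in BCAS mice 1 to 3. That of the G1/S genes was 2.25, 2.26 and 2.22 in sham mice and 2.73, 2.67 and 3.24 in BCAS mice. Neither group of genes overlapped between sham and BCAS mice, and BCAS mouse 3 stood above the other BCAS mice in both. Within a mouse, the G2/M mean lay below the G1/S mean by a log2 difference (G2/M minus G1/S) of -1.84, -1.94 and -2.00 in sham mice and -1.36, -1.45 and -1.19 in BCAS mice, so the distance narrowed by 0.60. Over the members that passed in sham mice alone, a restriction of this value added after the data were seen, it was -1.62, -1.72 and -1.76 in sham mice and -1.25, -1.40 and -1.07 in BCAS mice, a narrowing of 0.46. The count of higher G2/M members was 14, 16 and 13 without sham mouse 1, 2 or 3 and 12 without BCAS mouse 3, that of G1/S members was 9 without BCAS mouse 2, and the difference of the medians was 0.51 without BCAS mouse 3.

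**Figure D2:**
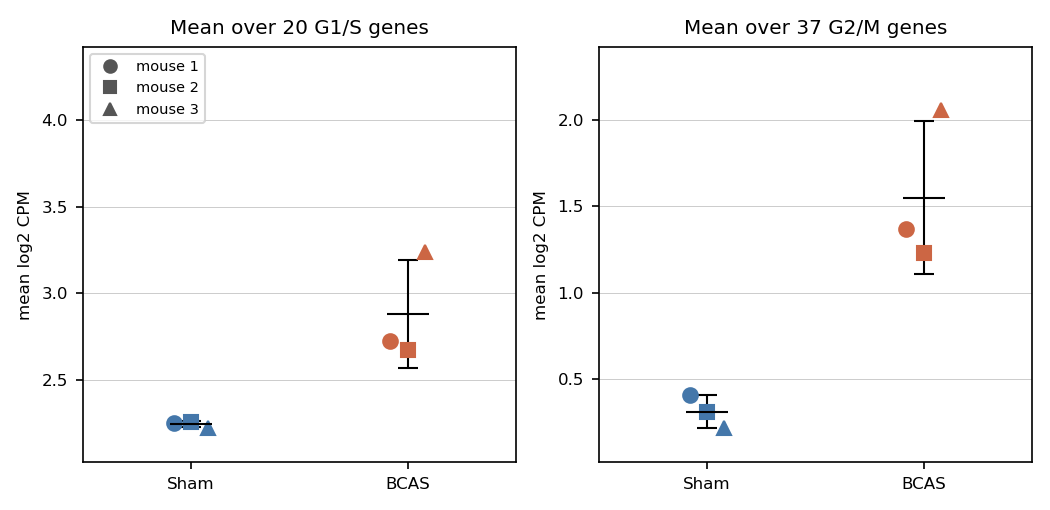
Mean log2 CPM over the 20 G1/S and the 37 G2/M members in each mouse (symbols), with the group mean (long bar) and SD (whiskers, n = 3 mice), on axes of equal span. The BCAS minus sham difference of the means is 0.64 for G1/S and 1.24 for G2/M genes, and BCAS mouse 3 is highest in both panels.

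Per kilobase of exon, the G2/M genes had a median level of 0.266 RPKM in sham mice and 0.780 RPKM in BCAS mice, and the G1/S genes 0.985 and 1.96 RPKM. Mitotic genes thus rested on few reads: leaving aside Anln, counts per sham library ran from 0 (Ndc80 in sham mouse 2 and Aurkb in sham mouse 3) to 235 (Racgap1 in sham mouse 1). Over the 57 members together, 9481 to 9922 counts were found in a sham library and 10382 to 16102 in a BCAS library.

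Among the G1/S cyclins and their kinase, Cdk2 was higher and Ccne1 lower in BCAS mice. Cdk2, the kinase that cyclins E and A activate, was 3.04, 3.05 and 4.05 CPM in sham mice 1 to 3 and 9.60, 6.46 and 12.8 CPM in BCAS mice 1 to 3. No BCAS mouse overlapped the sham mice, and the log2 fold change was 1.51 (SE 0.26, adjusted P = 0.00281). Ccne1, which encodes cyclin E, was 12.7, 13.6 and 14.5 CPM in sham mice and 8.34, 11.1 and 7.69 CPM in BCAS mice. Its values fell by 0.59 on the log2 scale (SE 0.16, adjusted P = 0.0216) without overlap, but the call was lost without sham mouse 2, sham mouse 3, BCAS mouse 1 or BCAS mouse 3. Ccnd1, cyclin D, which couples growth signals to G1, was 38.5, 34.0 and 32.4 CPM in sham mice and 40.8, 38.9 and 65.6 CPM in BCAS mice. BCAS mouse 3 stood apart there, and the log2 fold change of 0.47 did not pass (95% CI 0.045 to 0.89, adjusted P = 0.0885). Ccne2, the other cyclin E gene, had a log2 fold change of -0.035 (95% CI -0.41 to 0.34) with overlapping groups. Of its exon bases, 17.4% are shared with a gene on the opposite strand, as are 23.4% for Ccnd1, and reads there were assigned to neither gene.

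In the licensing and helicase group, 2 of 8 genes were higher, Mcm3 and Mcm5, and 0 were lower, a share (25%) near the 18.0% of all tested genes. Mcm3 was 3.42, 2.96 and 3.99 CPM in sham mice and 10.6, 10.2 and 14.4 CPM in BCAS mice, a 3.39-fold difference (log2 fold change 1.76, SE 0.19, adjusted P = 2.37e-04). Mcm5 was 4.69, 3.74 and 4.05 CPM in sham mice and 6.31, 6.30 and 9.49 CPM in BCAS mice (log2 fold change 0.82, SE 0.21, adjusted P = 0.0165), a call lost without sham mouse 2 or sham mouse 3. Both were above every sham value in every BCAS mouse. Mcm2 was tightly grouped in sham mice at 6.43, 6.38 and 6.53 CPM and stood at 8.53, 6.63 and 10.7 CPM in BCAS mice, and its log2 fold change of 0.42 did not pass (adjusted P = 0.115). The subunits of this helicase work in equal numbers, yet their fitted values spread from 0.20 (Mcm6) to 1.76 (Mcm3) with a median of 0.42. Mcm6 was 16.0, 19.1 and 13.6 CPM in sham mice and 19.1, 14.5 and 22.4 CPM in BCAS mice, with overlap between the groups. Mcm4 and Mcm7 had log2 fold changes of 0.41 and 0.42 (adjusted P = 0.0995 and 0.0759). Cdc6, the loading factor, was 1.18, 1.02 and 0.729 CPM in sham mice and 0.923, 0.928 and 1.25 CPM in BCAS mice. Its log2 fold change was 0.084 (95% CI -0.67 to 0.84), and Cdc45, part of the active helicase, had 0.43 (adjusted P = 0.263).

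Pcna, the sliding clamp that holds DNA polymerase on its template, had the highest level per kilobase of all members, at 17.9 RPKM in sham mice and 19.7 RPKM in BCAS mice. It was 40.0, 45.3 and 43.5 CPM in sham mice and 44.3, 45.4 and 52.5 CPM in BCAS mice. The groups overlapped, and the log2 fold change of 0.14 did not pass (95% CI -0.068 to 0.35, adjusted P = 0.280). Esco2, which acetylates cohesin during S phase, had 9, 7 and 14 counts in sham mice against 29, 10 and 57 in BCAS mice. The BCAS mice spread widely and overlapped the sham mice, and the log2 fold change of 1.78 (SE 0.62) did not pass (adjusted P = 0.0579), although Esco2 was called higher in 4 of 13 alternative fits (other tools, scalings or filters, a replicate block, or 1 mouse left out), DESeq2 among them.

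Deoxynucleotide synthesis divided by gene. Tk1, the thymidine salvage kinase, was 1.06, 0.808 and 0.525 CPM in sham mice and 2.59, 2.59 and 4.91 CPM in BCAS mice, the largest fold change of the G1/S members (4.19-fold, log2 2.07, SE 0.37, adjusted P = 0.00375). Rrm2, the subunit of ribonucleotide reductase made in S phase, was 1.09, 1.50 and 1.69 CPM in sham mice and 3.14, 3.12 and 6.99 CPM in BCAS mice (log2 fold change 1.63, SE 0.36, adjusted P = 0.0100). Rrm1, its partner subunit, was 18.9, 18.1 and 17.9 CPM in sham mice and 19.9, 19.2 and 29.8 CPM in BCAS mice. All 4 genes of the group had every BCAS mouse above every sham mouse, as did 25.3% of all tested genes. Rrm1 (log2 fold change 0.33, adjusted P = 0.167) and Tyms, thymidylate synthase (0.72, adjusted P = 0.124), did not pass. The E2F members, E2f1 and E2f2, did not pass, although E2f2 was called higher in 6 of the 13 alternative fits, DESeq2 and library totals among them. E2f2 was 1.42, 2.07 and 1.17 CPM in sham mice and 1.94, 3.18 and 3.69 CPM in BCAS mice (log2 fold change 0.92, adjusted P = 0.0591), and E2f1 was 7.35, 8.89 and 8.19 CPM in sham mice and 7.26, 11.1 and 10.4 CPM in BCAS mice (0.23, adjusted P = 0.358).

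**Figure D3:**
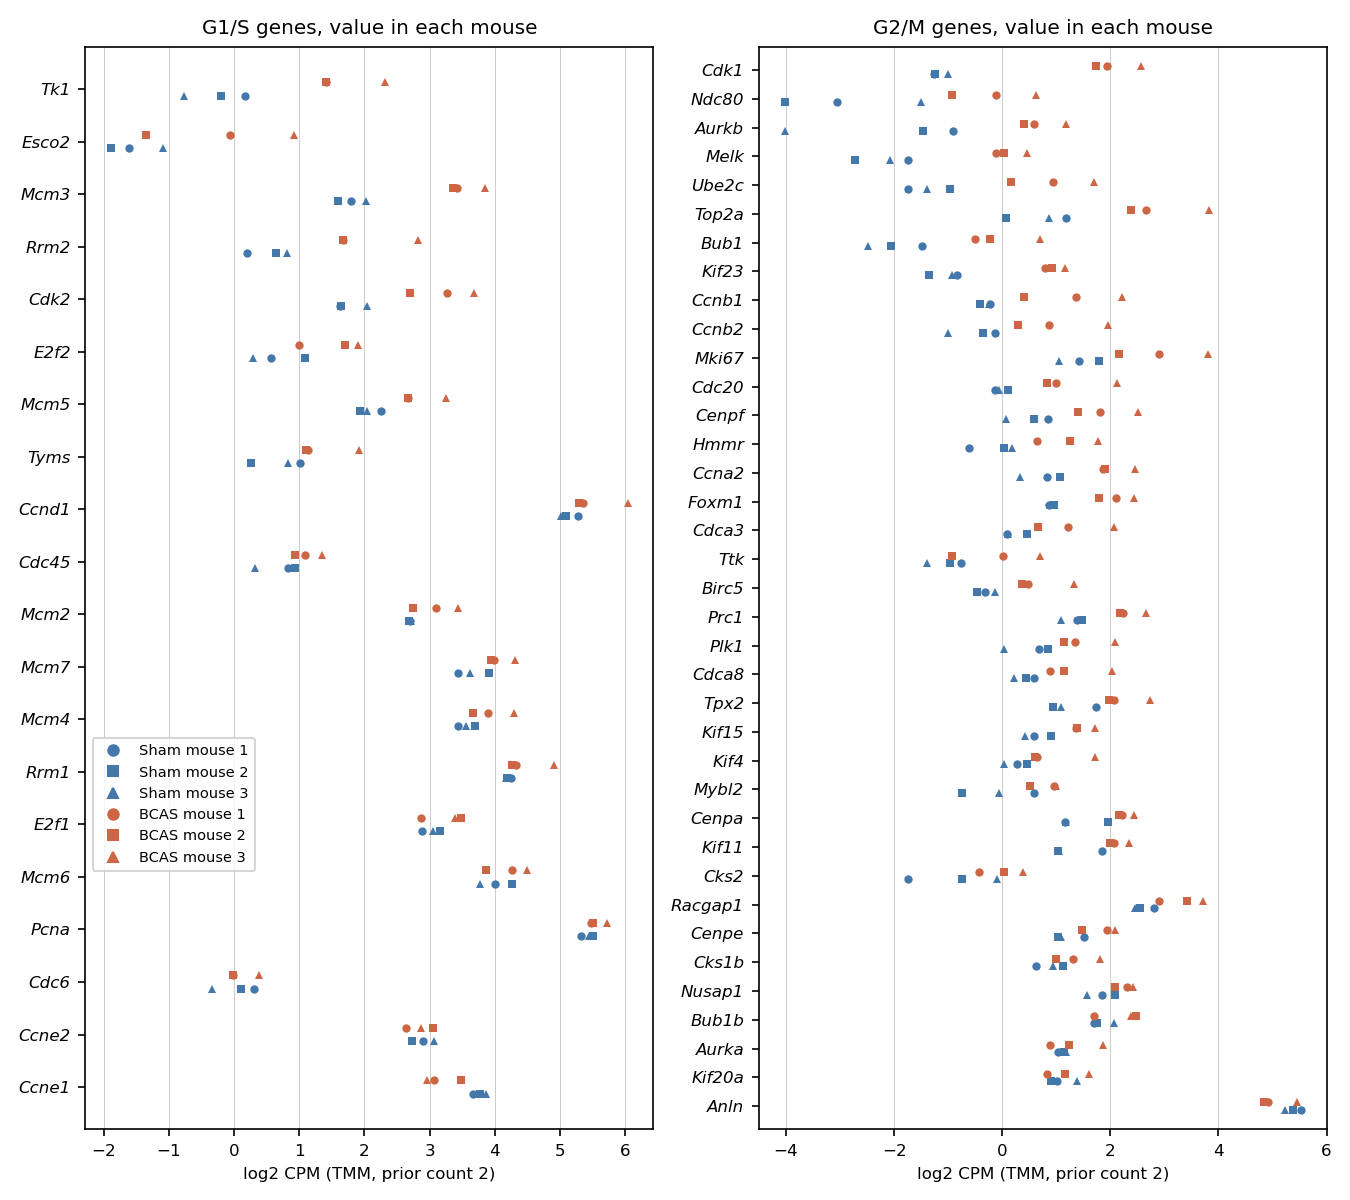
Level of each member in each mouse, as log2 CPM with TMM normalization and a prior count of 2, G1/S genes on the left and G2/M genes on the right, ordered by fold change, on separate axes. Sham mice (blue) and BCAS mice (orange) lie apart for most G2/M genes, and BCAS mouse 3 (orange triangle) is the highest BCAS mouse in 53 of 57 members.

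The mitotic cyclins and their kinase were higher in BCAS mice. Cdk1 had 12, 12 and 15 counts in sham mice against 123, 98 and 184 in BCAS mice, which is 0.354, 0.359 and 0.437 CPM against 3.79, 3.25 and 5.90 CPM. This difference was the largest of the 57 members and had the smallest adjusted P, 11.1-fold (log2 3.48, SE 0.32, adjusted P = 1.14e-04), and per kilobase the level went from 0.0777 to 0.874 RPKM. Its cyclin partners Ccna2, Ccnb1 and Ccnb2 had log2 fold changes of 1.36, 1.88 and 1.74 (adjusted P = 0.00641, 0.0133 and 0.0244), each without overlap. The call of Ccna2 held in all 13 alternatives, that of Ccnb1 was lost without sham mouse 1 or sham mouse 3, and that of Ccnb2 was lost under the replicate block and without any 1 sham mouse or BCAS mouse 3. Cks1b, a small subunit of cyclin-dependent kinases, was 1.48, 2.13 and 1.87 CPM in sham mice and 2.43, 1.92 and 3.46 CPM in BCAS mice, and its log2 fold change of 0.52 did not pass (adjusted P = 0.206), nor did that of Cks2 (0.80, adjusted P = 0.252). Foxm1, the factor that activates mitotic genes, was even among sham mice at 1.77, 1.89 and 1.78 CPM and was 4.22, 3.38 and 5.32 CPM in BCAS mice (log2 fold change 1.25, SE 0.23, adjusted P = 0.00397). Mybl2, which encodes B-Myb, was 1.45, 0.539 and 0.904 CPM in sham mice and 1.88, 1.36 and 1.92 CPM in BCAS mice (0.83, adjusted P = 0.131), with overlap.

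Of the 7 mitotic kinases, 4 were higher (Aurkb, Bub1, Melk and Plk1), against 18.0% of all tested genes. The first 3 had passed the filter only through BCAS mice, and of the 4 kinases that passed in sham mice alone 1 was higher, Plk1, with a median log2 fold change of 0.72 over them. Aurkb, the kinase that corrects faulty attachments of chromosomes to the spindle, had 16, 10 and 0 counts in sham mice against 47, 38 and 69 in BCAS mice (log2 fold change 2.66, SE 0.74, adjusted P = 0.0250). Its call was lost under the replicate block and without sham mouse 2 or BCAS mouse 3. Aurka, the related kinase of the centrosome, was 1.98, 2.15 and 2.22 CPM in sham mice and 1.79, 2.29 and 3.59 CPM in BCAS mice, with overlap and a log2 fold change of 0.27 (adjusted P = 0.515). Bub1, a spindle checkpoint kinase, had 2.33 (adjusted P = 0.0108), and Bub1b, its checkpoint relative, 0.38 (adjusted P = 0.267). Melk had 2.62 (adjusted P = 0.00326), Plk1, which acts from centrosome to cytokinesis, 1.06 (adjusted P = 0.0422, a call lost in 6 of the 13 alternatives), and the checkpoint kinase Ttk 1.20 with overlap (adjusted P = 0.0975).

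The 2 members of the anaphase-promoting complex group, Ube2c and Cdc20, were higher, against 18.0% of all tested genes. Ube2c, the ubiquitin-conjugating enzyme of the anaphase-promoting complex, had 8, 15 and 11 counts in sham mice against 60, 32 and 99 in BCAS mice (log2 fold change 2.58, SE 0.48, adjusted P = 0.00431), although it had passed the filter only through BCAS mice and 22.8% of its exon bases are shared with an opposite-strand gene. Cdc20, the activator of that complex, was 0.856, 1.02 and 0.904 CPM in sham mice and 1.94, 1.72 and 4.30 CPM in BCAS mice (1.52, SE 0.39, adjusted P = 0.0175), a call lost without sham mouse 1, sham mouse 3 or BCAS mouse 3. The chromosomal passenger genes Birc5 and Cdca8 and the cell cycle gene Cdca3 all passed. Cdca3 was 1.00, 1.32 and 1.02 CPM in sham mice and 2.28, 1.53 and 4.14 CPM in BCAS mice (1.25, adjusted P = 0.0357), and Cdca8 was 1.45, 1.29 and 1.11 CPM in sham mice and 1.79, 2.15 and 4.01 CPM in BCAS mice (1.05, adjusted P = 0.0462). Birc5, which encodes survivin, had 1.15 (adjusted P = 0.0389). The calls of all 3 were lost under the replicate block and when any 1 sham mouse or BCAS mouse 3 was left out.

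At the centromere, 3 of 4 genes were higher, against 18.0% of all tested genes. Ndc80, a kinetochore protein that grips microtubules, had 2, 0 and 10 counts in sham mice against 28, 14 and 46 in BCAS mice (log2 fold change 2.95, SE 0.85, adjusted P = 0.0287). Its call was lost with halved counts and without sham mouse 1, sham mouse 2, BCAS mouse 1 or BCAS mouse 3. Cenpe, a kinetochore motor, was 2.77, 1.98 and 2.07 CPM in sham mice and 3.76, 2.72 and 4.20 CPM in BCAS mice, and did not pass (0.65, adjusted P = 0.0777). Cenpf had 1.48 (adjusted P = 0.0115) and Cenpa, the histone variant that marks centromeres, 0.81 (adjusted P = 0.0389). The call of Cenpa was lost in 5 of the 13 alternatives (the replicate block, and without sham mouse 1, sham mouse 3, BCAS mouse 1 or BCAS mouse 3), and Ndc80 had passed the filter only through BCAS mice.

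Of the kinesin motors, 3 of 5 were higher, against 18.0% of all tested genes. Kif23, a motor of the central spindle, was 0.502, 0.329 and 0.466 CPM in sham mice and 1.66, 1.82 and 2.18 CPM in BCAS mice, with little spread in either group (log2 fold change 2.12, SE 0.32, adjusted P = 0.00160). Kif20a, another motor of cytokinesis, was 1.95, 1.80 and 2.54 CPM in sham mice and 1.72, 2.19 and 2.98 CPM in BCAS mice (0.13, 95% CI -0.50 to 0.77, adjusted P = 0.754). Reads over 33.2% of its exon bases, shared with the opposite-strand gene Cdc23, were not counted. Kif11 and Kif15, which push spindle poles apart, had 0.81 and 0.87 (adjusted P = 0.0465 and 0.0267), calls lost in 6 and 4 of the 13 alternatives, and Kif4 had 0.85 (adjusted P = 0.112).

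Of the spindle and cytokinesis genes, 4 of 6 were higher, against 18.0% of all tested genes. Hmmr, a spindle assembly protein, was 0.590, 0.958 and 1.08 CPM in sham mice and 1.51, 2.32 and 3.33 CPM in BCAS mice (log2 fold change 1.44, SE 0.37, adjusted P = 0.0186), a call lost without sham mouse 1 or BCAS mouse 3. Prc1, which bundles midzone microtubules, had 1.07 (SE 0.22, adjusted P = 0.00628), Tpx2 1.02 (adjusted P = 0.0290) and Racgap1 0.77 (adjusted P = 0.0241), while Nusap1 had 0.44 (adjusted P = 0.130). The calls of Tpx2 and Racgap1 were lost without sham mouse 2, sham mouse 3 or BCAS mouse 3, and that of Racgap1 also under the replicate block. Anln, the anillin of the cleavage furrow, which myelinating oligodendrocytes also express, differed from the rest of the G2/M genes in level and in sign. It was 46.1, 41.6 and 37.4 CPM in sham mice and 30.0, 28.8 and 43.8 CPM in BCAS mice (log2 fold change -0.29, 95% CI -0.65 to 0.079, adjusted P = 0.212). Anln was the 1 G2/M member with a value below 0, and without BCAS mouse 3 it was called lower. Summed over the other G2/M genes, the level was 54.9 ± 3.97 CPM in sham mice and 120.8 ± 38.6 CPM in BCAS mice (SD, n = 3 per group). Summed over the G1/S genes, it was 191.8 ± 5.60 CPM in sham mice and 250.9 ± 48.9 CPM in BCAS mice. In summed CPM the BCAS minus sham difference was thus similar, 65.8 for these G2/M genes and 59.1 for the G1/S genes, which started from a higher level.

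Mki67 and Top2a, often used to mark dividing cells, were both higher. Mki67, the Ki-67 protein that coats mitotic chromosomes, was 2.63, 3.38 and 2.01 CPM in sham mice and 7.42, 4.41 and 14.0 CPM in BCAS mice (log2 fold change 1.69, SE 0.39, adjusted P = 0.0122). Top2a was 2.21, 0.988 and 1.75 CPM in sham mice and 6.22, 5.14 and 14.1 CPM in BCAS mice (log2 fold change 2.36, SE 0.43, adjusted P = 0.00391). Both were without overlap, and in both the level of BCAS mouse 3 exceeded that of the other BCAS mice added together. The call of Mki67 was lost without sham mouse 1 or sham mouse 3. The call of Top2a held in each of the 13 alternatives run on each member, as did those of Cdk1, Cdk2, Mcm3, Rrm2, Tk1, Ccna2, Foxm1, Bub1, Melk, Ube2c, Cenpf, Kif23 and Prc1, 14 of the 31 higher members. The other 17 higher members each lost the call in at least 1 alternative.

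**Figure D4:**
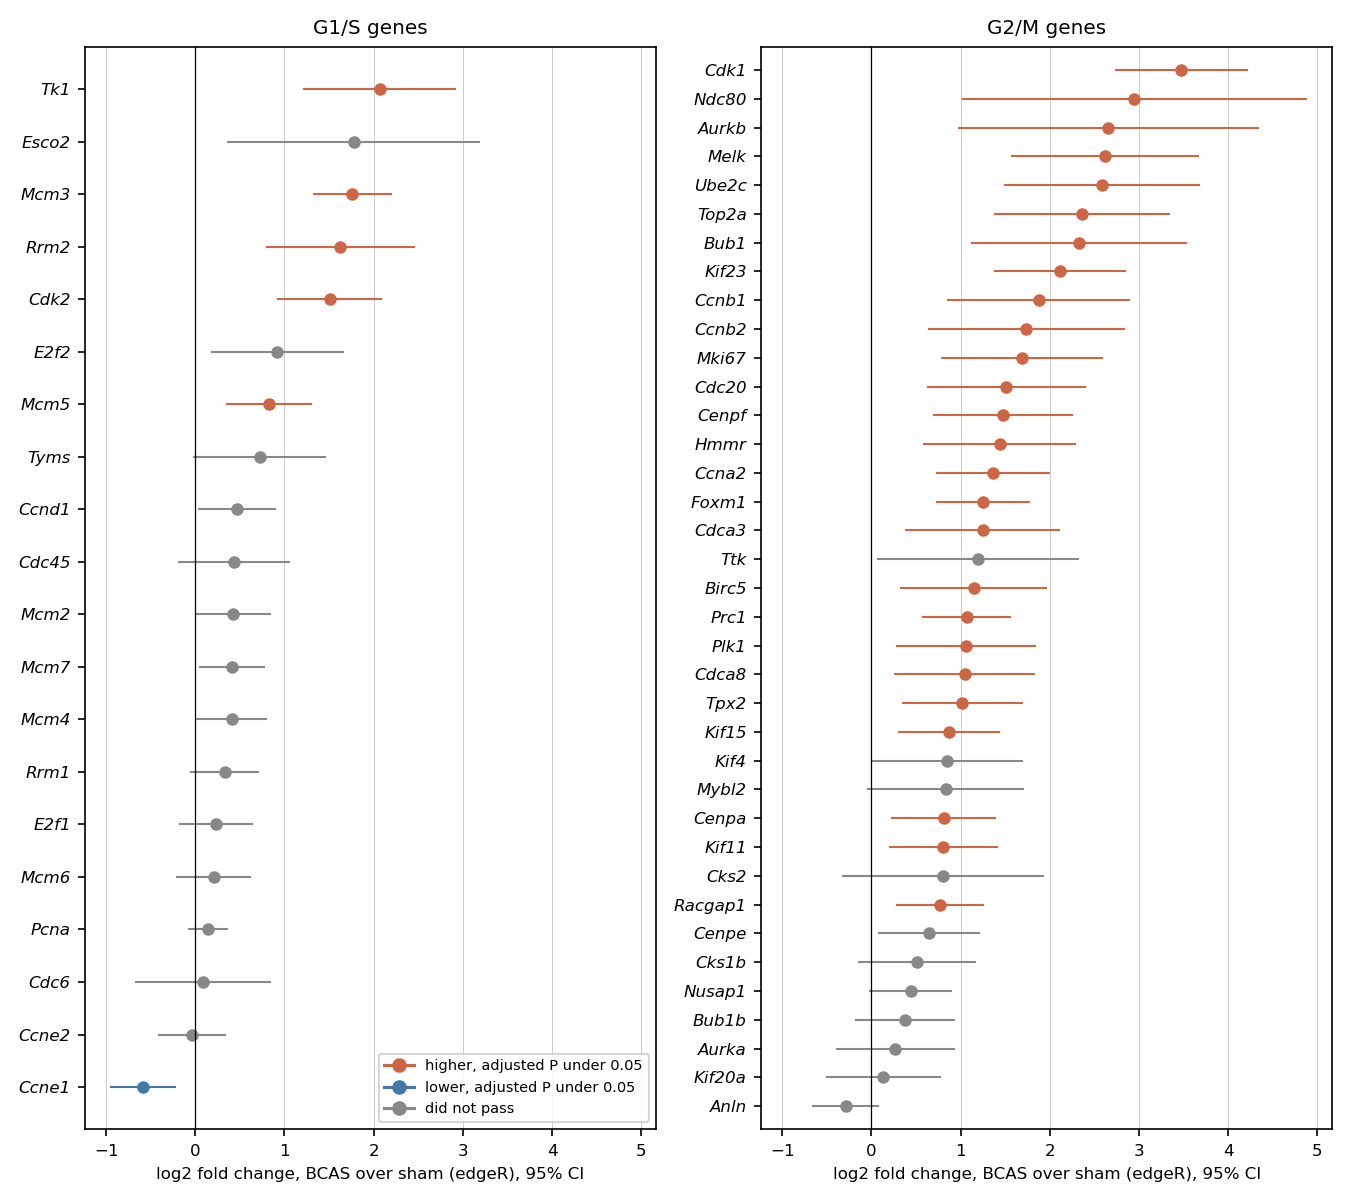
Log2 fold change of each member (BCAS over sham, edgeR) with its 95% confidence interval, G1/S genes on the left and G2/M genes on the right. Filled colours mark the 31 members higher (orange) and the 1 lower (blue) at an adjusted P under 0.05, and the values run from -0.59 (Ccne1) to 3.48 (Cdk1).

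BCAS mouse 3 was the highest BCAS mouse in 53 of 57 members (93%), against 34.3% of all tested genes. The others were Ccne1, Ccne2, E2f1 and Bub1b, where BCAS mouse 2 was highest. Its log2 CPM exceeded the mean of BCAS mice 1 and 2 by a median of 0.71 over the G2/M genes, 0.51 over the G1/S genes and 0.00053 over all tested genes. The excess was largest for Esco2 (1.63), Ccnb2 (1.38), Ccnb1 (1.33), Top2a (1.31) and Mki67 (1.28), and 56 of 57 members had a positive value, Ccne1 (-0.32) being the exception. Without this mouse, 17 members were still called higher, and the calls of Ccnb2, Aurkb, Plk1, Cdc20, Birc5, Cdca8, Cdca3, Cenpa, Ndc80, Kif11, Kif15, Tpx2, Hmmr and Racgap1 were lost. The medians were then 0.76 for G2/M and 0.26 for G1/S genes.

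**Figure D5:**
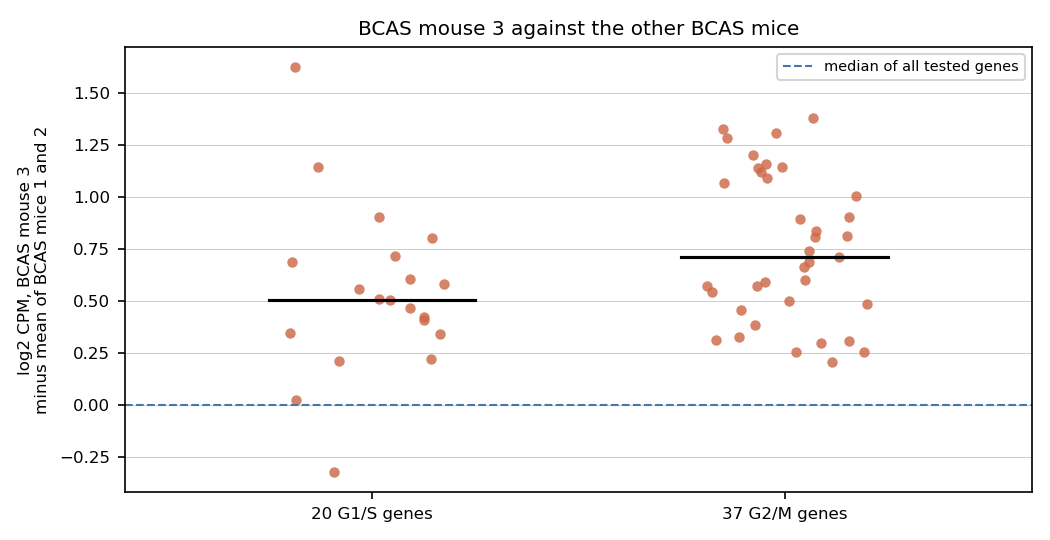
Log2 CPM of BCAS mouse 3 minus the mean of BCAS mice 1 and 2 for each member (points, spread sideways for clarity), with the median of each group (black bar) and the median of all tested genes (dashed line). The medians are 0.51 for G1/S genes, 0.71 for G2/M genes and 0.00053 for all tested genes.

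Other genes of the same pathways were listed too, 54 for replication and 60 for mitosis. Of 53 tested replication genes, 13 were higher (24.5%, near the 18.0% of all tested genes) and 2 lower, with a median log2 fold change of 0.23. Cdt1, the partner of Cdc6 in loading the helicase, was the highest at 1.71 (SE 0.22, adjusted P = 7.00e-04), with 1.62, 1.68 and 1.28 CPM in sham mice and 4.65, 4.38 and 6.03 CPM in BCAS mice. Dut, which clears dUTP, was the lowest: its level fell by 0.41 on the log2 scale (SE 0.10, adjusted P = 0.0156), from 30.1, 30.1 and 29.7 CPM in sham mice to 23.5, 24.2 and 19.9 CPM in BCAS mice. The other lower gene was E2f3 (-0.26, adjusted P = 0.0410). Of 59 tested mitotic genes, 22 were higher and 0 lower, with a median of 0.73. Kif2c, a kinesin that depolymerizes microtubules at centromeres, was the highest at 3.20 (SE 0.70, adjusted P = 0.00917), with 0.118, 0.180 and 0.0583 CPM in sham mice and 0.400, 0.961 and 1.99 CPM in BCAS mice, and it passed the filter only through BCAS mice. Psrc1, a spindle protein, was the lowest at -0.35 (adjusted P = 0.184), with 13.4, 10.9 and 8.89 CPM in sham mice and 9.91, 8.95 and 7.18 CPM in BCAS mice. Higher replication genes were 8, 7 and 7 without sham mouse 1, 2 or 3 and 5 without BCAS mouse 3, and higher mitotic genes were 14 without sham mouse 3 and 13 without BCAS mouse 3. Of these genes, 17 mitotic and 5 replication genes did not pass the filter in sham mice alone. Some of them, such as Cdc25c and Sgo1, did not pass in BCAS mice alone either. Among the genes that passed in sham mice alone, 11 of 42 mitotic genes (median 0.38) and 11 of 48 replication genes (median 0.19) were higher. In these lists the shares of the phases thus lay close together and not far above that of all genes passing in sham mice alone, 2954 of 16855.

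Markers of some cell types that can divide were higher in BCAS mice too, and their part in the results was not tested. Over all tested genes 18.0% were higher and 13.2% lower, and the counts of markers below are to be read against these shares. All 10 microglia markers were higher. Their summed level was 344 to 368 CPM in sham mice and 1815, 1912 and 2916 CPM in BCAS mice 1 to 3. BCAS mouse 3 also had the highest BCAS sum for oligodendrocytes and their precursors, endothelium and mural cells. The same held for border macrophages, monocytes and neutrophils, T cells and B cells. It was not highest for astrocytes, fibroblasts or choroid plexus and ependyma, and it was lowest for excitatory and inhibitory neurons. The summed level of 8 T cell markers was 2.30 to 3.12 CPM in sham mice and 9.57 to 13.5 CPM in BCAS mice, and the 6 called higher had passed the filter only through BCAS mice. Of 8 monocyte and neutrophil markers, which summed to 0.838 to 2.86 CPM in sham mice and 6.13 to 12.6 CPM in BCAS mice, 4 could be tested. The 3 higher ones were the monocyte markers Ccr2, Plac8 and Ly6c2, of which Plac8 and Ly6c2 had passed the filter only through BCAS mice. The neutrophil genes were mixed. Ngp had 19, 6 and 25 counts in sham mice against 4, 0 and 0 in BCAS mice and Camp 8, 0 and 13 against 0, 0 and 2, while S100a8 had 2, 4 and 9 against 5, 36 and 24, all 3 too low to be tested. S100a9 did not pass (adjusted P = 0.202), and Ly6g was at 0 in every library. Border macrophage markers were higher in 3 of 5 (9.37 to 13.8 CPM against 23.4 to 31.2 CPM), and all 7 astrocyte markers were higher (3656 to 4004 CPM against 8555 to 9174 CPM). Among oligodendrocyte precursor markers 2 of 7 were higher, Cspg4 and Gpr17, not far from the share of all tested genes, with a median log2 fold change of 0.17. Their summed level was 346 to 381 CPM in sham mice and 388 to 469 CPM in BCAS mice. Among markers of neural progenitors and neuroblasts, Nes and Sox11 were higher (log2 fold change 0.75 and 0.34, adjusted P = 0.0232 and 0.0338). The level of Neurog2 fell by 1.86 on the log2 scale (adjusted P = 0.0350), but Neurog2 had passed the filter only through sham mice. Dcx, Eomes, Igfbpl1 and Draxin did not pass (0.033, 0.53, 0.94 and 0.66). Endothelial markers were higher in 4 of 7 (265 to 290 CPM against 351 to 392 CPM). Mural cell markers were higher in 2 of 6 (219 to 267 CPM against 255 to 275 CPM), again not far from the share of all tested genes, with a median log2 fold change of 0.24. Myelinating oligodendrocyte markers gave 0 calls of 6, with 5092 to 6256 CPM in sham mice and 6444, 5840 and 8796 CPM in BCAS mice. Fibroblast markers were higher in 4 of 5, B cell markers in 1 of 3 tested (Cd79b, which passed the filter only through BCAS mice), and choroid plexus and ependyma markers in 1 of 8, with a summed level that varied from 88.2 to 4124 CPM among sham mice and from 62.4 to 5985 CPM among BCAS mice. Excitatory neuron markers were lower in 4 of 5 and inhibitory neuron markers in 5 of 5.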

How the data were processed

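RNA-seq libraries from 3 sham and 3 BCAS mice were grouped by their labels. The authors trimmed the reads with Trim Galore, aligned them to mm10 with HISAT2 and deposited raw counts per gene from featureCounts, without normalization. Per the file headers, both mates of a pair counted, strand was not used, and reads on several places or several genes were left out. The headers name featureCounts 2.0.3 and GENCODE vM20, whereas the submitters' processing notes name version 1.6.3. Totals were 29652456 to 35607098 counts per library. An upper limit of 3 counts for an observed 0 equals 0.0875 to 0.0995 CPM and covers counting error only.

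Counts were filtered with filterByExpr, normalized by TMM (factors 0.964 to 1.05) and tested by the quasi-likelihood method of edgeR with the group as the single term (R 4.3.3, edgeR 4.0.16, limma 3.58.1), with Benjamini-Hochberg adjustment over 18617 genes. The common biological coefficient of variation was 0.161. SE is the absolute log2 fold change divided by the square root of F. The log2 CPM used a prior count of 2, and RPKM used exon lengths in the files. Alternatives were DESeq2 1.42.0, RLE factors, library totals, other filters, halved counts, glmTreat, the replicate block, leaving out each mouse, and a list without Ccna2, Mybl2, Melk, Cks1b and Esco2, the members of uncertain phase. The test was tested on simulated data. The members and lists were chosen with earlier results of these data known. Values per mouse are given for Mki67, Top2a, Cdk1, Ccnd1, Pcna and Mcm2, for members called lower, and for the largest and smallest fold change of each functional group and of each list of other genes; Mcm5, Mcm6 and Rrm2 were added after their values were seen. Replicates of a group differed beyond sampling noise, with a chi-square per degree of freedom of 12.9 to 44.1 between libraries. A marker gene of the progenitor list, and counts and sums that include it, are not reported here.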

Additional observations from a re-analysis of the deposited data

How the results depend on the processing

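The difference of the medians, G2/M minus G1/S, stayed positive in every alternative run. Its lowest value was 0.51 and its highest 0.80 when each mouse was left out in turn. Over these same 6 fits the genes changed numbered 3782 to 6646, the members higher 17 to 36, the members lower 0 to 1, the up-regulated DEGs 15 to 28, the G1/S members higher 4 to 9 and the G2/M members higher 12 to 27. Other replication genes higher numbered 5 to 12 and other mitotic genes higher 13 to 25. The member called lower without BCAS mouse 3 was Anln and not Ccne1. Single fold changes that changed sign, none of them called, were Cdc6 (-0.091 without sham mouse 3, -0.081 without BCAS mouse 3, up to 0.24 without sham mouse 1), Aurka (-0.060 without BCAS mouse 3, up to 0.47 without BCAS mouse 1) and Kif20a (-0.10 without BCAS mouse 3, up to 0.30 without BCAS mouse 1), beside Ccne2, which ranged from -0.15 to 0.064 over the 13 alternatives. The narrowing of the distance between the phases within a mouse was 0.46 over members that passed in sham mice alone, an alternative added after the data were seen. With no filter beyond 1 count, 8 G1/S members were higher. glmTreat, which tests against a log2 fold change of 1 and is stricter by construction, left 6 up-regulated DEGs among the members. Elsewhere the cause was not tested. Library totals moved the median of all genes to 0.095. Promoter windows from 150 bases before the start gave CHR letters in 81.2% of G2/M and 31.2% of G1/S members.

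With the replicate number as a block, 16 G2/M members and 7 other replication genes were higher, and 21 members in all. These numbers do not pair mice, since sham and BCAS libraries of the same number had residual correlations of 0.036, -0.314 and -0.158. Several called members rest on few reads in sham mice, such as Ndc80, Aurkb, Bub1 and Melk with 0 to 16 counts per library.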

Other observations

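Genes of the pathway lists that were too low to test were Dscc1 and Ska1. Ska1, which tracks microtubule ends at the kinetochore, had 0 CPM in all sham mice and 0.246, 0.199 and 0.705 CPM in BCAS mice 1 to 3. Ccnb2-ps, a pseudogene of Ccnb2, held 939 counts over the 6 libraries and had a log2 fold change of 0.16 (adjusted P = 0.471, edgeR), while Ccnb2 itself had 29, 24 and 15 counts in sham mice against 57, 35 and 119 in BCAS mice. Reads that fit both were not counted for either.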
